A study of Mus musculus with 158 samples.

Results

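Across liver, kidney, lung and B cells of 5 hybrid mouse strains, 8968 autosomal regions were DNase I hypersensitive in every tissue of every hybrid and carried no CTCF peak in mouse embryonic stem cells (mESCs). They were chosen from the values themselves: hotspots (regions of enriched DNase I cleavage) of the 20 adult hotspot sets were merged where they overlapped by at least 1 bp, which gave 714403 autosomal regions, and a region was kept when all 20 sets had a hotspot in it and no hotspot of the mESC CTCF ChIP-seq touched it. A hotspot in all 20 sets made 27339 regions constitutive, of which the other 18371 overlapped a CTCF hotspot. The hotspots in every set and the lack of CTCF are therefore properties of the choice and not results. The regions are called sites without CTCF here, and those with a CTCF hotspot serve as the comparison.

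The mice were F1 offspring of C57BL/6J dams. The cross is named by its sire: B6x129, B6xC3H (C3H/HeJ), B6xCAST (CAST/EiJ), B6xPWK (PWK/PhJ) and B6xSPRET (SPRET/EiJ), with dam and sire genomes in every cell. The mice were killed at 8 weeks of age. The tissues were whole liver, both kidneys and all lobes of the lung, in which a hotspot can come from any cell of the organ, and B cells from the bone marrow of the femur of female mice after magnetic depletion of cells carrying CD43 or Mac-1. Each of the 20 sets pooled the DNase-seq samples of 1 hybrid and 1 tissue (138 samples in the labels, 2 to 14 per set). The study lists fewer biological replicates than that, so some of these may be repeat runs of a library. The 5 hybrids are the repeats of a tissue, and no spread within a set can be given. The mESCs were of the B6xCAST cross, with 1 DNase-seq set pooled from 2 samples and 1 CTCF ChIP-seq sample, and neither has a replicate here.

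CTCF is a zinc finger protein that halts the cohesin ring on DNA and so shapes chromatin loops, and its sites are open in most cell types. The other well known class of DNA that is open everywhere is the promoters of housekeeping genes, whose products every cell needs, and these are typically rich in CpG and in binding sites of broadly expressed factors such as NRF1, NFY, YY1 and the ETS and SP/KLF families. Enhancers, in contrast, are mostly open in few cell types and are bound by lineage factors such as PU.1 in blood cells and FOXA in endodermal organs.

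The sets held 76055 to 151020 autosomal hotspots in B cells, 147871 to 273104 in lung, 181072 to 232440 in kidney and 205195 to 286482 in liver. The hotspot files hold no reads, and the reads that the study lists for each set were not used here, so the depth behind a single hotspot is not given. The 5 marker genes listed for each tissue had a hotspot within 1 kb of a start in all 5 sets of their own tissue. Several had one in other tissues as well. Hopx and Pax5 had one in all 20 sets, Alb, which encodes albumin, in all 5 kidney and all 5 lung sets, Cyp2e1 in all 5 kidney sets, Nphs1, Scgb1a1 and Ager in all 5 liver sets, and Cd79b and Ms4a1 in all 5 lung sets. Of the 6 markers of other blood cells, Csf1r of macrophages had a hotspot in 4 sets of each tissue and the T cell gene Cd3e in 1 liver and 3 lung sets but in none of kidney or B cells. Klf1 had one in 3 to 5 sets of each tissue, Adgre1 in 2 to 5 and Mpo in 4 or 5 sets of the organs and 1 of B cells. Of the 4 endothelial markers, Kdr and Cdh5 had a hotspot in all 20 sets, Pecam1 in 4 liver sets and all others, and Tek in all sets of the organs and none of B cells.

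Sequence was read from the mm10 reference for 300 bp around the centre of the widest stretch that the most sets covered, and the letters of 15 motifs were searched on both strands. The sites printed here are sites richest in a motif and those with many bases open in all sets far from any gene start, all shown on the forward strand. The first group lies at gene starts, and capitals mark the letters of the motif named. They are Zfp652 at chr11:95712588-95712667 (NRF1), Nr1h2 at chr7:44553950-44554079, which encodes a liver X receptor (ETS), Heca at chr10:17948161-17948240 (CREB/ATF), Rad9a at chr19:4201676-4201775, a gene of the DNA damage checkpoint (USF/TFE), 9430015G10Rik at chr4:156109894-156109973 (ZNF143), Mdh2 at chr5:135778403-135778472, which encodes mitochondrial malate dehydrogenase (ZBTB33 and SP/KLF), Tbcel at chr9:42472285-42472374 (RFX and NFY) and Usp25 at chr16:77013563-77013682 (CTCF and SP/KLF).
Zfp652: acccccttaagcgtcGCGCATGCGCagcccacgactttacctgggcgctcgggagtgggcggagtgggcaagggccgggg
Nr1h2: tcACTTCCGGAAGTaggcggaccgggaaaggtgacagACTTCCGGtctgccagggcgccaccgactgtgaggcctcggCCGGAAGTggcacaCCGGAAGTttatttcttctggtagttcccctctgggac
Heca: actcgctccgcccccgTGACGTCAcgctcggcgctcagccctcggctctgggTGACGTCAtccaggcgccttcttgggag
Rad9a: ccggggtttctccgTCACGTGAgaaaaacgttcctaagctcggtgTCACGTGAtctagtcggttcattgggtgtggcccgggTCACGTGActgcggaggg
9430015G10Rik: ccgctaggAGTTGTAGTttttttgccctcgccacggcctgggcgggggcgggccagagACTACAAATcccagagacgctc
Mdh2: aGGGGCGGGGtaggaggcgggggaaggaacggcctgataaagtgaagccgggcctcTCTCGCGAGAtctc
Tbcel: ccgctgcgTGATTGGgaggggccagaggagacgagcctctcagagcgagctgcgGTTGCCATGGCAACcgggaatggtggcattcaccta
Usp25: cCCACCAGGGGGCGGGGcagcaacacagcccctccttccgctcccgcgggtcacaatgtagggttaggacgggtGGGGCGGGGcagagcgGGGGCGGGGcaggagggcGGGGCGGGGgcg
Nr1h2 held 5 matches of the ETS letters in the printed stretch. The letters of NRF1 and ZBTB33 read nearly alike on both strands, so that the 2 matches at Zfp652 and the 2 at Mdh2 are 1 place each. All of these sites held a gene start and were open in mESCs, and the bases covered in all 20 sets ran from 385 bp at Rad9a to 1219 bp at Zfp652.

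The second group shows sites with AP-1 and PU.1 letters and sites far from a gene start. A site that holds no gene start is named by the nearest. They are Gm13296 at chr2:11429711-11429910 (AP-1), Nav2 at chr7:48998780-48998879 (PU.1), Gm14486 at chr2:30658664-30658743 (NRF1), Gm26773 at chr14:118089495-118089627, where the capitals are the phenylalanine tRNA gene n-TFgaa5 on the reverse strand, and Plcl2 at chr17:50470614-50470763, which held no letters of the list and has no capitals.
Gm13296: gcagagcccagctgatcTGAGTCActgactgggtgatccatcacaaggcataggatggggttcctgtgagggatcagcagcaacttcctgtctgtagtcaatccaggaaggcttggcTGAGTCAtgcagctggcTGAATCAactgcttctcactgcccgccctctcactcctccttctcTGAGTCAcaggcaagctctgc
Nav2: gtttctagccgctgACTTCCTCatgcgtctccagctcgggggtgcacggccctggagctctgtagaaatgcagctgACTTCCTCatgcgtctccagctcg
Gm14486: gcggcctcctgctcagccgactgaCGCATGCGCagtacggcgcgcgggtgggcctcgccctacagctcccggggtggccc
Gm26773: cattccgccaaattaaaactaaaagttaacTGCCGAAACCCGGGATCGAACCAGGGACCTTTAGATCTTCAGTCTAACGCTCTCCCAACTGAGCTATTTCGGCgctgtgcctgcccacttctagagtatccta
Plcl2: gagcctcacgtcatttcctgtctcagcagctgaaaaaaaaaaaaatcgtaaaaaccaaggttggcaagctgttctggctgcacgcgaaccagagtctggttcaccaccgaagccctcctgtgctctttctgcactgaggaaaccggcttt
The window of the Nav2 site held 3 matches of the PU.1 letters, and the 2 in the printed stretch lie in the same flanking letters. The Gm13296 site was intergenic, 8172 bp from the nearest start, and the Nav2 site lay in an intron at 39209 bp, and neither had an mESC hotspot. The sets covered 75 to 1843 bp at Gm13296 and 83 to 694 bp at Nav2, where no base was covered by all 20.

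Most sites without CTCF were promoters. A gene start, meaning the 5′ end of any GENCODE vM21 transcript, lay in 6143 sites or 68.5% (95% Wilson interval 67.5 to 69.5), against 27.6% of the constitutive regions with CTCF and 3.83% of all merged regions. The intervals cover counting error only, and neighbouring regions are not independent. A start of a protein-coding gene lay in 64.9%, and 7.44% held coding starts on both strands against 2.54% of the regions with CTCF. The sites were also wider, with a median of 1836 bp against 844 bp, and a wider region holds a start more easily. The bases covered by all 20 sets, called common bases here, are narrower, and of the 5985 sites with a start and at least 1 common base 92.7% had a start in those bases. Their centre lay at a median of -22 bp from the nearest coding start, where minus is upstream, and within 250 bp of it in 92.0% of 5696 sites.

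Counted by gene, 6365 of 20807 autosomal protein-coding genes (30.6%) had a start in a site without CTCF. Another 22.0% had none there but had one in a constitutive region with CTCF. Genes with starts in both were counted under the sites without CTCF. The share with a start in a site without CTCF was 42.1% of 190 long non-coding RNAs of bidirectional promoters, 5.57% of lincRNAs and 0.280% of processed pseudogenes. In constitutive regions with CTCF, counted in the same way, the shares were 35.3%, 5.80% and 0.437%. Processed pseudogenes are gene copies made from reverse-transcribed RNA and usually lack a promoter. The tRNA genes, which RNA polymerase III transcribes, were also present: 99 of 386 (25.6%) lay in 65 sites, of which 21 held a gene start and 63 were open in mESCs. Constitutive regions with CTCF held a similar share, 93 of the 386 (24.1%).

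The gene lists were fixed with earlier results of these data known, and their shares are descriptions. Of the housekeeping complexes, 52 of 75 genes of the mitochondrial ribosome (95% Wilson interval 58.2% to 78.6%), 29 of 46 proteasome genes (48.6% to 75.5%), 15 of 20 cytosolic tRNA synthetases (53.1% to 88.8%), 16 of 26 Mediator genes (42.5% to 77.6%), 40 of 76 ribosomal protein genes (41.6% to 63.5%) and 18 of 34 genes of respiratory complex I (36.7% to 68.5%) had a start in a site, beside 30.6% of all coding genes. The intervals of 7 of 13 genes of RNA polymerase II (29.1% to 76.8%), 4 of 8 of the chaperonin CCT (21.5% to 78.5%) and 9 of 22 of the V-ATPase (23.3% to 61.3%) held that share. Many of the other genes of these lists had a constitutive region with CTCF at the start, for example 26 ribosomal protein genes and 15 proteasome genes. Of 14 autosomal reference genes often used to normalise expression, 11 started in a site without CTCF, and the other 3, Actb and Rplp0 among them, in a region with CTCF. No marker gene of liver, of kidney, of other blood cells or of stem cells started in a site. The other marker lists each had few: Hopx of 5 lung genes, Cd79b and Pax5 of 5 B cell genes, Cdh5 and Kdr of 4 endothelial genes and Grin1 of 10 neuronal genes.

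Among the reference genes, hotspots covered about the same length in every tissue at several starts. The covered length, which is the number of bases of a site under hotspots of a set, ran from 1761 to 2401 bp at Eef1a1, the elongation factor, from 1813 to 2428 bp at Polr2a, the largest subunit of RNA polymerase II, and from 2512 to 3728 bp at Ywhaz, a 14-3-3 protein. Gapdh, a glycolytic enzyme, had 2578, 1351, 2742, 2473 and 2423 bp in B cells, in the order B6x129, B6xC3H, B6xCAST, B6xPWK and B6xSPRET that is kept throughout, and 3291 to 4172 bp in the 15 other sets. The groups did not overlap, and the B cell difference was -0.67 on the log2 scale (adjusted p = 8.38e-06, limma), below the log2 difference of 1 asked for a call. At Gusb, β-glucuronidase, lung had 1369, 1326, 1274, 1137 and 1420 bp and kidney 620, 629, 847, 595 and 811 bp, which gave 0.69 and -0.65.

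Nearly every site with a gene start was also open in mESCs, and most other sites were not. The mESC DNase-seq had a hotspot in 76.9% (76.0 to 77.7) of the sites, against 94.9% of the constitutive regions with CTCF and 9.47% of all merged regions. CTCF was measured in the same mESCs, so that regions chosen by its binding there are not independent of this readout. Of the sites with a gene start 93.9% (93.2 to 94.4) were open, and of the 2825 without it was 1129 (38.2% to 41.8%), where the regions with CTCF and no start reached 93.7%. Over 10 kb from any start, 35.7% of 1161 sites were open against 94.0% of the regions with CTCF. Sites with no mESC hotspot are called closed here, which means only that no hotspot was called, and there were 1696 without and 377 with a gene start. The study lists a lower share of reads in hypersensitive sites for the mESC samples than its mean for the adult samples. In the adult sets the −log10 FDR, which goes no higher than 100, had a median of 22.7 at sites without a start and 100 at the others. Whether weak signal left mESC hotspots uncalled was not tested. The centre of the window of the 2825 sites without a start was in an intron for 53.0%, between genes for 40.4% and in an exon for 6.65%.

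The step from 19 to 20 sets was larger for regions without CTCF than for those with it. Of regions without CTCF with a hotspot in 1 set 2.05% were open in mESCs and 0.608% held a gene start, in 19 sets 33.6% and 23.6%, and in 20 sets 76.9% and 68.5%. For regions with CTCF the open share was 13.6%, 82.6% and 94.9% at the same numbers of sets. Their share with a gene start also stepped up at the last set, from 1.12% in 1 set and 9.55% to 10.4% in 17 and 18 sets to 27.6% in 20. Merged regions in more sets are wider, with medians of 112 bp in 1 set, 1116 bp in 19 and 1836 bp in 20 for those without CTCF.

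**Figure D1:**
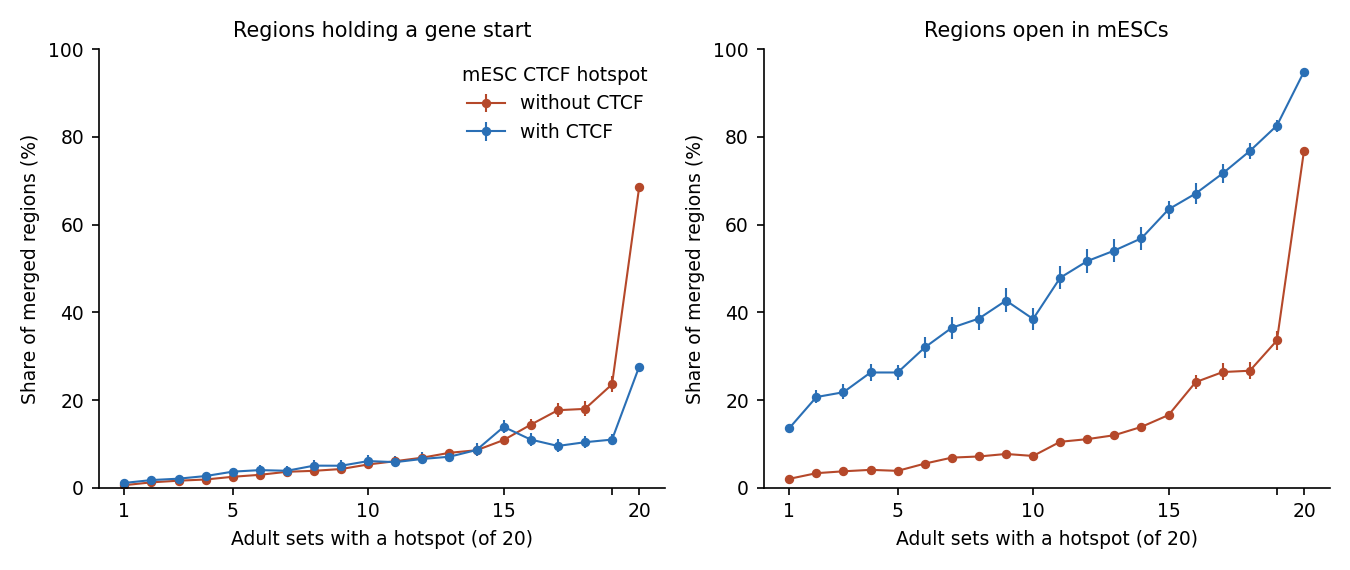
Share of merged regions open in mESCs and share holding a gene start (vertical axes, percent) against the number of adult sets with a hotspot (horizontal axis, of 20), for regions without and with an mESC CTCF hotspot. Points are shares with 95% Wilson intervals, and those of the regions without CTCF rise from 33.6% to 76.9% open and from 23.6% to 68.5% with a gene start between 19 and 20 sets.

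The 1972 regions without CTCF that missed a hotspot in exactly 1 set show how the choice depends on the sets. B6xC3H B cell, the set with the fewest hotspots, was the missing set in 554 of them (28.1%), B6xSPRET Liver in 352, B6xSPRET B cell in 214 and B6xC3H Lung in 202. Igf2bp3, an RNA-binding protein, was left out with no hotspot in B6x129 Kidney and up to 7855 bp elsewhere, Ppp1r3c with none in B6xC3H B cell and up to 7629 bp, Mir99ahg with none in the same set and up to 4022 bp, Lrig3 with none in B6xSPRET B cell and up to 5615 bp, and Osbpl1a with none in B6xPWK B cell and up to 5302 bp. Just inside, Gm45846, Cx3cl1 and Mthfsl had a single base under hotspots of all 20 sets, with covered lengths of 52 to 1491, 126 to 1187 and 78 to 1001 bp.

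Sites with more common bases more often held a gene start and were more often open in mESCs. At least 1 such base was found in 8303 sites (92.6%), and the other 665 had hotspots of all sets that did not meet at a single base. Of the 665 sites, 23.8% held a gene start and 30.7% were open in mESCs. With 1 to 199 common bases the shares were 27.1% and 41.6%, and with 200 to 399 they were 54.2% and 70.4%. With 400 to 799 they were 91.4% and 96.1%, and with 800 or more they were 97.4% and 99.4%. The regions with CTCF had 8.34% and 87.5% with 1 to 199 common bases and 95.1% and 99.7% with 800 or more. Those with no common base had 32.1% and 68.4%. Common bases are a length taken from the same hotspots, and a longer region holds a start more easily. The median of the sites without CTCF is given next. The median was 618 common bp with a gene start and 164 bp without. In 952 sites (10.6%) every set had a single hotspot, against 37.9% of the regions with CTCF.

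Hivep2, a zinc finger gene, had the most common bases, 4028 bp, in the region chr10:13963547-13968809. Liver covered 5030, 4883, 4569, 4839 and 4757 bp there, kidney 4179 to 4584, lung 4408 to 4852 and B cells 4376 to 4620 bp, so that all groups overlapped. Ing1, which encodes a reader of histone methylation, Ppp2r3d, a phosphatase subunit, Maml3, a coactivator of Notch, and the region of the circadian gene Dbp, which also holds the ribosomal protein gene Rpl18, followed with 3690, 3477, 3286 and 3384 common bp. All of them were open in mESCs. The Dbp region covered 5122 to 15828 bp and differed by 0.64 in liver (adjusted p = 0.000214, limma), below the size asked for a call.

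Far from any gene start, the sites with the most common bases were long in every set by that choice. The tRNA site Gm26773, 17050 bp from the nearest start, covered 1396 to 2372 bp. Plcl2, 37600 bp from a start and closed in mESCs, covered 1902, 1766, 1503, 1781 and 1614 bp in liver, 1930, 1902, 1871, 1965 and 1400 in kidney, 1744, 1446, 1721, 1728 and 1667 in lung and 2105, 1776, 2115, 2118 and 1773 in B cells. The tissues overlapped there, with an adjusted p of 0.0828 or more. Gm14486, Gm5218 and Wnt11 had 1207, 1677 and 1382 common bp and were open in mESCs. Each had at least 1 tissue difference that passed the test but was below the size asked for a call. Gm14486 had -0.41 in liver (adjusted p = 0.00219, limma) and 0.34 in kidney (0.0140), Gm5218 -0.30 in liver (0.0258) and 0.30 in lung (0.0315), and Wnt11 0.29 in B cells (0.0180). Of the closed sites, Gse1 and Bmi1, a gene of the Polycomb repressive complex, had 1416 and 1064 common bp and a gene start, and Sinhcaf, of the Sin3 histone deacetylase complex, had 1108.

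The base composition of the windows followed the gene starts. GC content had a median of 64.3% at sites with a start, 51.3% at those without and 49.3% at the closed ones, against 63.7% in the constitutive regions with CTCF and a start and 48.3% in those without a start. The ratio of observed to expected CpG was 0.817, 0.304 and 0.246 at the sites and 0.776 and 0.235 at the regions with CTCF.

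Letters of most motifs of broadly expressed factors were more frequent in sites with a gene start than in those without, and RFX and the TATA box were not. SP/KLF (GGGGCGGGG) was in 17.6% of windows of all sites, in 23.3% (22.3 to 24.4) of those with a gene start and in 1.03% of all merged regions outside the constitutive ones. NFY (CCAATCA) was in 9.55% against 3.82%, ETS (CCGGAAGT) in 7.17% against 0.377%, CREB/ATF (TGACGTCA) in 3.06% against 0.309%, NRF1 (GCGCATGCG) in 2.70% against 0.0750%, YY1 (AAGATGGCG) in 2.67% against 0.213%, ZNF143 (ACTACAANT) in 2.16% against 0.814%, USF/TFE (TCACGTGA) in 1.54% against 0.285% and ZBTB33 (CTCGCGAGA) in 1.08% against 0.00670%. RFX (GTTGCCATG) was in 0.836% against 0.473%, and the TATA box (TATAAAAG) in 0.602% against 1.63%. The starts of all protein-coding genes held SP/KLF in 14.7%, NFY in 8.00% and ETS in 4.97%. The regions with CTCF held SP/KLF in 6.87% and ETS in 1.96% of windows, at their gene starts 20.1% and 5.74%, and the TATA box in 1.01% (0.873 to 1.16).

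AP-1, PU.1 and FOXA letters were more frequent in closed sites, with or without a gene start, than in all sites with a start. AP-1 (TGANTCA) was in 14.8% (13.2 to 16.6) of the 1696 closed sites without a start, PU.1 (GAGGAAGT) in 13.3% and FOXA (TGTTTAC) in 8.43%, against 4.09%, 3.39% and 2.03% of sites with a gene start and 11.4%, 3.38% and 5.73% of the other merged regions. The 377 closed sites with a start held them in 12.7%, 14.9% and 6.63%. The 1129 sites without a start that were open in mESCs held them in 11.6% (9.86 to 13.6), 7.17% and 5.40%. The AP-1 interval of these open sites overlapped that of the closed sites without a start. YY1 and ZBTB33 were in 0 of the 1696, which allows a share of up to 0.226% by the interval, and SP/KLF in 2.06%. Regions missing in 1 set had AP-1 in 12.3% and PU.1 in 11.8%. Markers of other blood cells had hotspots in all tissues as given above, and their part in the PU.1 share was not tested. The CTCF motif, whose absence the choice favours, was in 6 sites (0.0669%) and in 3498 of the 18371 regions with CTCF, and no site in these windows had more than 5 of the 15 motifs.

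**Figure D2:**
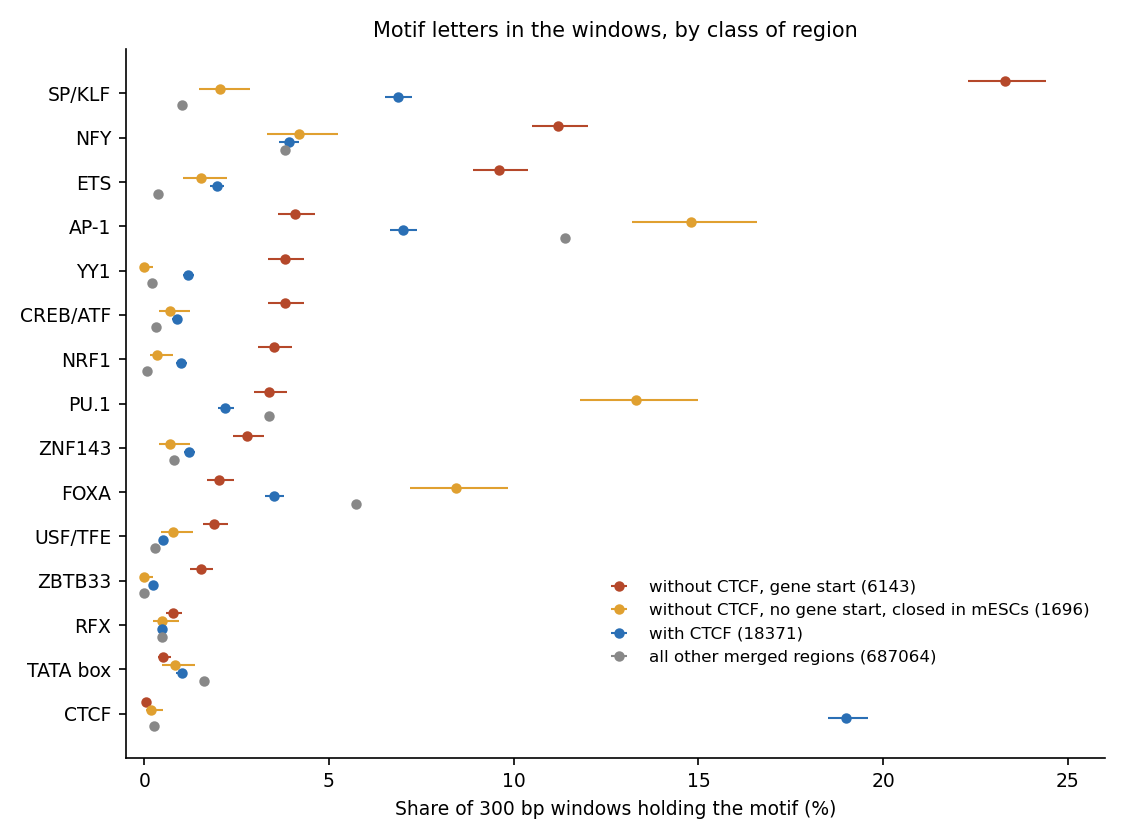
Share of 300 bp windows that hold each motif (horizontal axis, percent) for the motifs of the list, by class of region, with 95% Wilson intervals. SP/KLF stands at 23.3% in sites with a gene start and 2.06% in closed sites without one, and AP-1 and PU.1 stand at 14.8% and 13.3% in the latter.

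Covered length differed between sets, and no difference of a tissue or hybrid passed the test. The mean over the 8968 sites was 880 bp in B6xC3H B cell, the lowest, and 1673 bp in B6x129 Liver, the highest. Liver had 1344 bp ± 223 (SD, n = 5 sets) against 1157 ± 185 in the 15 others, a difference of 187 bp (exact permutation test within hybrids, two-sided, p = 0.0498, adjusted p = 0.224 over 18 tests). Kidney had 1153 bp ± 101, lung 1096 ± 185 and B cells 1222 ± 257, with adjusted p of 0.809, 0.347 and 0.923 in the same exact permutation test. Without B6xCAST the liver difference was 273 bp (exact permutation test, adjusted p = 0.0312 over 8 tests). The means of the hybrids ran from 1055 bp ± 61.5 in B6xSPRET to 1354 ± 247 in B6x129, each n = 4, with no adjusted p under 0.307 in the exact permutation test within tissues.

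Set against the constitutive regions with CTCF of the same set, the sites were by their mean longest in B cells and shortest in kidney. The log2 ratio of the mean covered length at sites without CTCF to that at regions with CTCF was 0.568, 0.487, 0.527, 0.504 and 0.556 in kidney and 0.654, 0.652, 0.681, 0.690 and 0.651 in B cells. The kidney values lay below all 15 others, at 0.529 ± 0.0341 against 0.625 ± 0.0375 (SD, exact permutation test, p = 0.000977, the smallest it can give, adjusted p = 0.0176). The B cell mean was 0.666 ± 0.0184 against 0.579 ± 0.0460, with other sets up to 0.652 (exact permutation test, p = 0.00391, adjusted p = 0.0352). With the median over sites in place of the mean, B cells had 1.33, below 1.37 in lung and 1.36 in liver, and kidney had 1.19. The adjusted p was then 0.0703 for kidney and 0.837 for B cells (exact permutation test). With the mean, leaving out B6xC3H or B6xPWK gave 0.0625 over 8 tests for B cells in the same test.

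**Figure D3:**
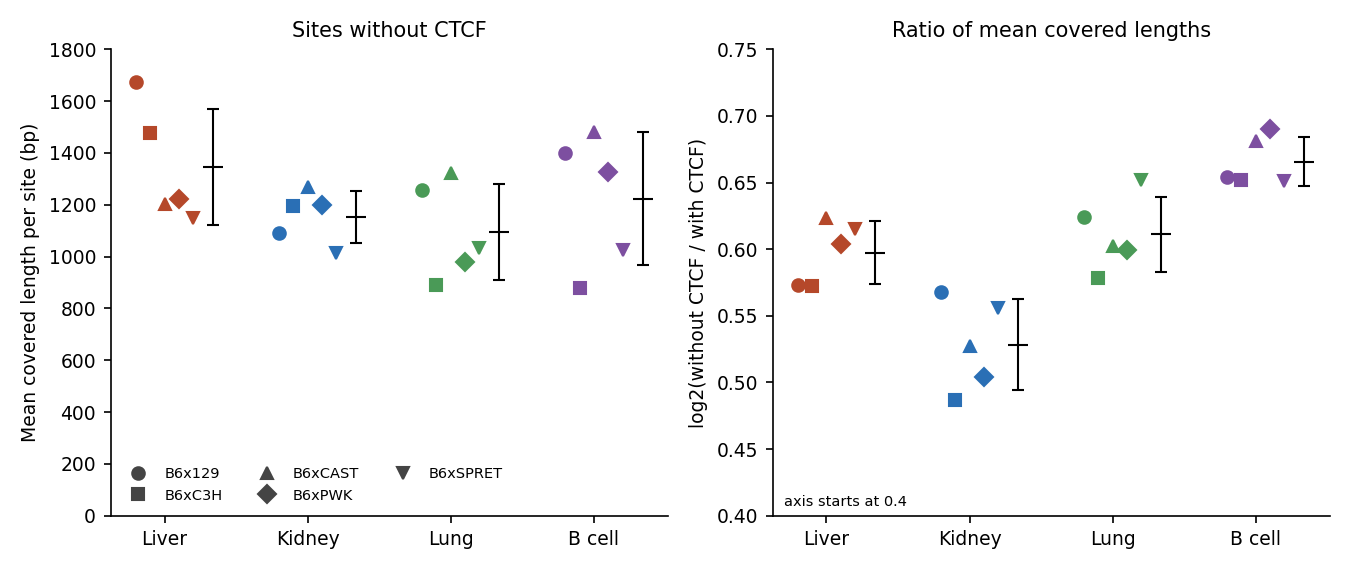
Mean covered length of the sites without CTCF (bp) and its log2 ratio to the regions with CTCF in the same set (vertical axes), by tissue (horizontal axis), 1 point per set with the marker shape giving the hybrid. Kidney sits at 0.487 to 0.568 in the ratio, below the other tissues, while the mean lengths of the tissues overlap.

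Single sites were compared between tissues with limma on log2(covered bases + 50), fitted over all 27339 constitutive regions, and called at an adjusted p under 0.05 and a log2 difference of at least 1 from the mean of the other 3 tissues. In B cells 615 sites were longer (6.86%, background 3.78% of all constitutive regions) and 435 shorter (4.85%, background 4.47%). In liver 461 were longer (5.14%, background 4.38%) and 420 shorter (4.68%, background 2.56%). In kidney 93 were longer (1.04%, background 1.27%) and 366 shorter (4.08%, background 2.04%), and in lung 138 were longer (1.54%, background 1.28%) and 142 shorter (1.58%, background 1.14%). At least 1 call was made for 1798 of the 8968 sites, against 3898 (14.3%) of all constitutive regions. The median log2 difference of the sites was 0.08 in B cells, 0.03 in liver, -0.01 in lung and -0.08 in kidney. Without centring the sets, liver had 569 longer and 318 shorter sites and lung 83 and 203, where the median difference of all constitutive regions was 0.10 and -0.19.

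Sites without a gene start were called more often than promoters. In B cells 14.1% (12.8 to 15.4) of the sites without a start were longer and 3.55% (3.11 to 4.04) of those with one, and in kidney 8.35% and 2.12% were shorter. In liver 7.26% and 4.17% were longer and 8.42% and 2.96% shorter. Of the sites longer in B cells 35.4% held a gene start, against 57.7% of those shorter there. PU.1 letters were in 16.1% (13.4 to 19.2) of the sites longer in B cells and in 16.9% (13.4 to 21.1) of those shorter in kidney. They were in 12.1% of the sites shorter in liver, 12.3% of those longer in lung and 5.06% to 8.60% of the other called groups. The share was 5.74% of all sites and 10.9% (9.77 to 12.1) of those without a start. FOXA letters were in 17 of the 142 sites shorter in lung (7.61% to 18.3%), of which 40.1% held a gene start, beside 3.67% of all sites and 7.22% (6.32 to 8.23) of those without a start.

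**Figure D4:**
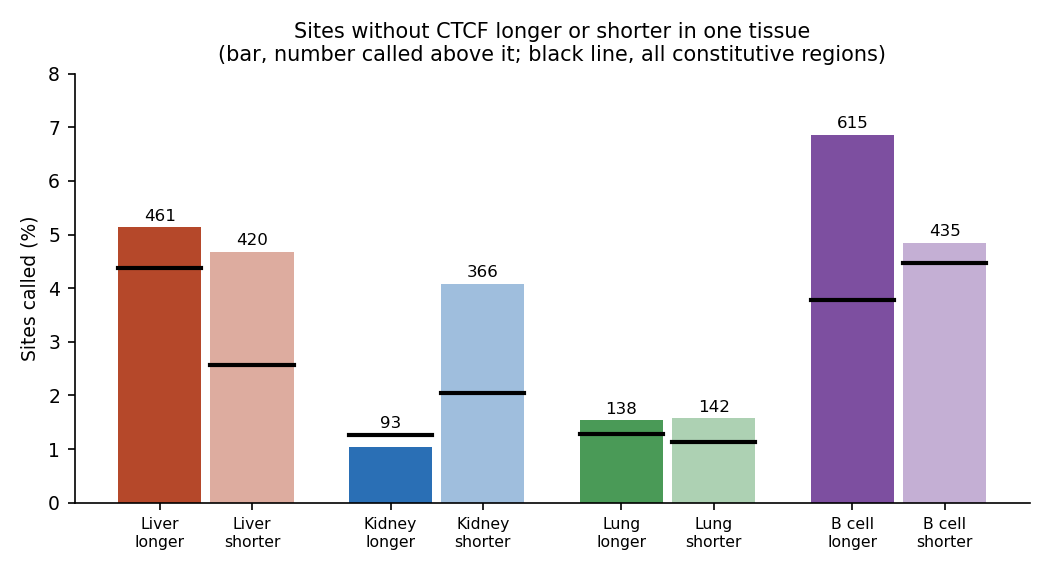
Share of the 8968 sites without CTCF called longer or shorter in a tissue (vertical axis, percent), with the number of sites above each bar and a black line at the share of all 27339 constitutive regions. The share shorter in kidney is 4.08% against 2.04%, and the share longer in B cells 6.86% against 3.78%.

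In liver, the largest gains in covered length were at regions that hold the starts of Prox1, Adipor2 and Fn1. The region of Prox1, a homeobox gene of liver and lymphatic development (chr1:190167335-190175896), covered 8376, 8388, 7613, 6900 and 6972 bp in liver and a median of 522 bp (75 to 5536) in the 15 others. The liver sets were all above the rest, and the log2 difference was 3.62 (SE 0.26, adjusted p = 2.33e-09, limma). Fn1, which encodes fibronectin, covered 9958, 9826, 7968, 6637 and 6295 bp against 50 to 2256 bp (3.12, SE 0.17, adjusted p = 8.03e-11). Adipor2, the receptor of adiponectin, covered 9054, 10173, 6308, 5184 and 4496 bp against 158 to 1047 bp, a difference of 3.25. Of the shorter sites, the one near Plau, the urokinase gene, covered 292, 201, 282, 204 and 260 bp in liver and a median of 1291 bp (662 to 2667) in the others (-2.36, SE 0.13, adjusted p = 1.07e-10). The sites near Icosl, the ligand of ICOS, and at the start of Mef2c, a transcription factor of muscle and B cells, covered 92 to 339 bp and 161 to 2910 bp in liver, with differences of -2.36 and -2.34. Among these 6 sites liver overlapped the other tissues at Mef2c only.

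In kidney, the sites near 6330576A10Rik and Kntc1 were among those that gained the most. The site by Kntc1, a gene of mitosis, covered 1212, 1257, 1661, 1533 and 1154 bp in kidney and a median of 346 bp (154 to 871) in the others (1.82, SE 0.13, adjusted p = 7.40e-09, limma). At 6330576A10Rik the kidney sets covered 1554, 2416, 1875, 2352 and 1640 bp against 160 to 1283 bp (1.92). Both were clear of all other sets. Of the sites that were shorter, the intronic one nearest Alcam, an adhesion molecule, covered 201, 216, 208, 219 and 122 bp in kidney and 470 to 3029 bp elsewhere (-2.72, SE 0.13, adjusted p = 1.46e-10). Its values were highest in B cells, at 3029, 1867, 2995, 2519 and 1719 bp. The sites near AC132455.2 and Dapp1, an adaptor of B cell signalling, covered 315 to 403 bp and 117 to 489 bp in kidney (-2.70 and -2.58).

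In lung, the largest gain was in an intron site nearest Snx30, a sorting nexin, which covered 2133, 1306, 2095, 1743 and 1455 bp against a median of 233 bp (85 to 1074) in the others. It lay 8929 bp from the start, was closed in mESCs, and differed by 2.52 (SE 0.15, adjusted p = 2.45e-09, limma). The start of Tox2, a gene of an HMG box factor, covered 3056, 1440, 3186, 2075 and 2678 bp against 184 to 1079 bp (2.20), and the site near Gm26887 covered 1968, 1605, 1983, 1167 and 1569 bp against 68 to 786 bp (1.99). None of these overlapped the other sets. The sites that were shorter had less even values. The one near Gm42791 covered 79, 74, 1123, 405 and 253 bp in lung against 671 to 1512 bp (-1.92, SE 0.27, adjusted p = 3.80e-05), with B6xCAST inside the range of the others. Mlec and Shox2, a homeobox gene, had -1.89 and -1.79.

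In B cells, the region of the immunoglobulin heavy chain joining segments at Ighj4 (chr12:113425259-113429845) covered 4587, 4336, 4567, 4508 and 4480 bp, and a median of 343 bp (100 to 981) in the others. All 5 B cell sets lay above every other set, and the log2 difference was 3.63 (SE 0.20, adjusted p = 5.64e-11, limma). Fcrla, a B cell gene of the Fc receptor family, covered 3638, 1477, 4101, 3811 and 2346 bp against 87 to 779 bp (2.97), and 9430078K24Rik 4617, 2407, 4773, 3515 and 3877 bp against 80 to 1087 bp (3.07). Of the B cell markers that were sites, Pax5, a transcription factor that fixes B cell identity, covered 11816, 8750, 13011, 12472 and 9449 bp against 580 to 4627 bp in the organs (2.86, adjusted p = 6.67e-07), and Cd79b, a subunit of the B cell receptor, 3134, 1615, 6594, 5958 and 4156 bp (2.58, adjusted p = 2.37e-09). Of the shorter sites, Esrp2, a splicing regulator of epithelial cells, covered 1086, 172, 698, 275 and 405 bp in B cells and 3246 to 6671 bp in the others (-3.25), and Agap1, a gene of Arf regulation, covered 260, 77, 388, 270 and 242 bp and 1642 to 3687 bp elsewhere (-3.30, SE 0.12, adjusted p = 4.58e-13). Prox1 was called shorter in B cells as well, with 209, 81, 417, 214 and 75 bp against 340 to 8388 bp in the others (-3.08). The groups overlapped there, and the others include the long liver sets given above.

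**Figure D5:**
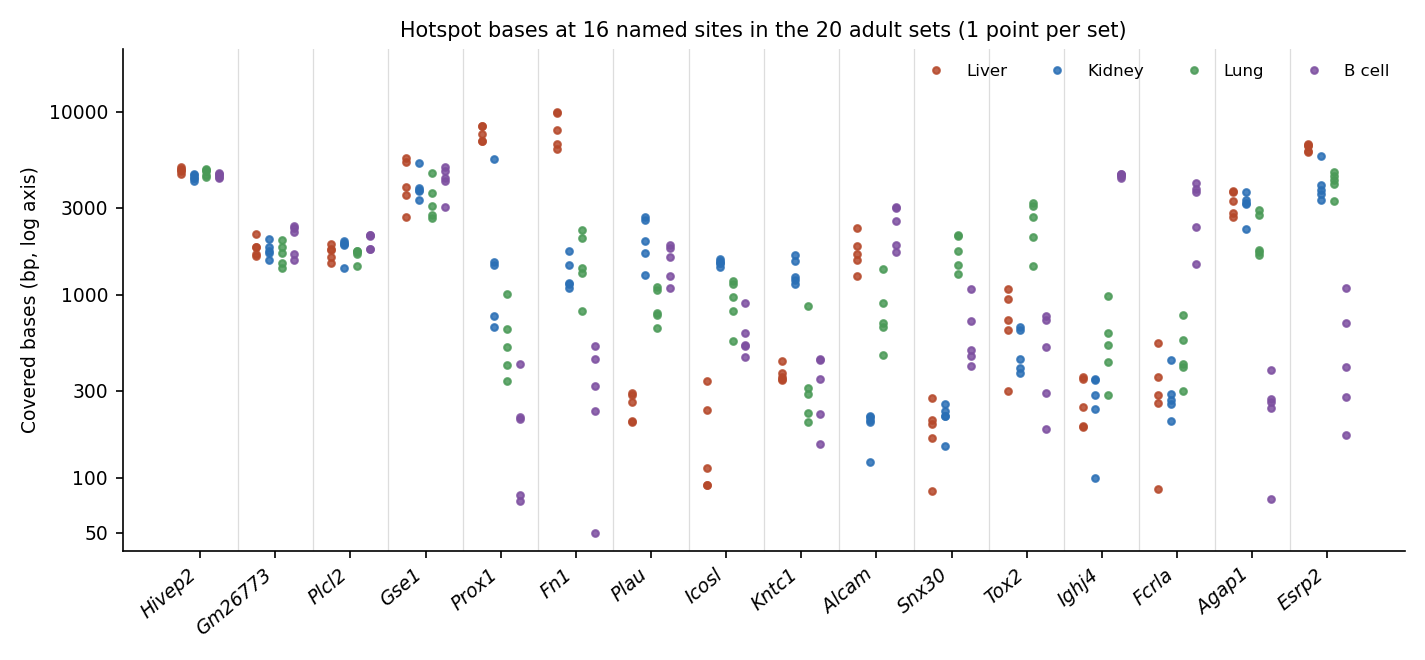
Covered bases (vertical axis, bp, log axis) at 16 named sites (horizontal axis) in the 20 adult sets, 1 point per set and colour by tissue. Hivep2, Gm26773 and Plcl2 were chosen for the bases covered in all sets and are long in each by that choice. Ighj4 covers 4336 to 4587 bp in B cells and 100 to 981 bp elsewhere.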

How the data were processed

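DNase-seq was analysed in the 20 adult sets and in mESCs, with mESC CTCF ChIP-seq, all mapped by the authors to mm10 with BWA after Trimmomatic. The samples of a hybrid and tissue were pooled by the authors before hotspot2 was run (FDR 5%). The deposited values are positions of hotspots and their −log10 FDR, which goes no higher than 100. A hotspot's length depends on the depth of its set, which the files do not give. The study lists the reads of each set, and these were not used here. The tables of 17 RNA samples were not used here.

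Sites were found, described and searched for motifs in Python 3.11.15 with numpy 2.4.6, scipy 1.17.1 and pandas 2.3.3, on GRCm38.p6 sequence, GENCODE vM21 transcripts and RefSeq tRNA genes. Covered length was tested with an exact two-sided permutation test, tissue labels within hybrids and hybrid labels within tissues, adjusted by Benjamini-Hochberg over 18 tests, over 8 without a hybrid and over 10 without a tissue. Single sites were tested with limma 3.58.1 in R 4.3.3 on log2(covered bases + 50), centred on the median of all constitutive regions, with the hybrid as covariate. Merging, overlap, motif counts and the limma fit were tested on simulated data.

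The members and lists were chosen with earlier results of these data known, and the counts by gene type and of tRNA genes were added after the values were seen. The sites named are the reference genes, the 5 with the most common bases among all sites, among those over 10 kb from a start and among those without an mESC hotspot, the richest per motif, the 3 largest calls per tissue and direction, those nearest the limit of the rule, and up to 4 genes per list. Some items that this rule or the lists name are not reported here. The alternatives were FDR 1%, a stricter overlap, the 75000 highest-scoring hotspots, other windows, offsets and scalings, and leaving out each hybrid or tissue.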

Additional observations from a re-analysis of the deposited data

Results flagged for a closer look

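Of 104 groups of 5 sets (a named site, or a measure over all sites, in a tissue), 10 had a set far from the other 4. This was judged by Dixon's ratio of gap to range, where chance flags about 1 in 20 groups. All 10 were at named sites. The causes were not tested.

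B6xC3H was low at Gapdh in B cells, with 1351 bp against 2423 to 2742 bp in the other hybrids, at the Gm42791 site in B cells (814 against 1277 to 1427 bp) and at the Plcl2 site in lung (1446 against 1667 to 1744 bp). Its B cell and lung sets had the fewest hotspots of their tissues. B6xSPRET was low in kidney at the Plcl2 site (1400 against 1871 to 1965 bp) and the Alcam site (122 against 201 to 219 bp), and its kidney set also had the fewest hotspots of kidney.

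The other flags were high. B6xCAST stood out in kidney at Gse1 (5257 against 3291 to 3845 bp) and Esrp2 (5720 against 3299 to 3980 bp), and in lung at the Kntc1 site (871 against 201 to 308 bp) and the 6330576A10Rik site (776 against 179 to 350 bp). In kidney, B6xPWK covered 5536 bp at Prox1, where the other 4 hybrids covered 667 to 1518 bp.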

How the results depend on the processing

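Hotspots carry no reads here, so a site's presence in all 20 sets and its covered length both depend on the depth of the sets, which was not used here, and each alternative below changes the sites themselves or 1 step. The number of sites was 5968 with the 75000 highest-scoring hotspots of each set and 9102 to 10100 without a hybrid. The share with a gene start was 72.1% at FDR 1%, 72.1% with at least 1 common base, 87.7% with the 75000 highest, 63.5% to 68.1% without a hybrid (lowest without B6xC3H), 72.6% for a start within 1000 bp and 64.9% for coding genes alone. The share open in mESCs was 80.4%, 80.6%, 94.0% and 72.5% to 76.5% in the same order, 75.2% with mESC hotspots at FDR 1% and 72.5% with an overlap of 50%. The share of windows with any motif of the list, 51.5%, was 52.7% with a common base, 56.2% with the 75000 highest, 49.6% to 51.6% without a hybrid, and 42.7% and 61.6% in windows of 200 and 500 bp. Fewer or other sites account for the first of these by construction, and the causes of the rest were not tested.

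Without a hybrid in turn, the tissue difference in covered length was 112 to 273 bp in liver, with an adjusted p of 0.0312 (exact permutation test) without B6xCAST, -112 to 4.13 bp in kidney and -23.8 to 107 bp in B cells (-17.8 without B6xPWK), and without a tissue that of B6xPWK was -80.3 to 13.9 bp (11.5 without lung). The log2 ratio to regions with CTCF changed sign in liver with the median over sites (0.0685) and without B6x129 (0.00535, the range over hybrids starting at -0.0101), for B6x129 with the median (-0.00597) and without kidney (-0.01), and for B6xPWK without kidney (0.00796) and lung (0.00302, the range over tissues starting at -0.0122). None of those was called. For kidney the ratio difference was -0.165 with the median (adjusted p = 0.0703, exact permutation test), and for B cells 0.0168 with the median (0.837) and 0.0816 and 0.0779 without B6xC3H and B6xPWK (0.0625, the range over hybrids being 0.0779 to 0.0973).

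With the stricter rule that the 5 sets of a tissue lie outside the 15 others, longer and shorter sites were 293 and 135 in liver, 29 and 96 in kidney, 50 and 38 in lung and 409 and 246 in B cells. With an offset of 150 bp, 262 were shorter in liver, 57 longer in kidney and 72 longer in lung, and without centring 83 were longer in lung. Without the replicate block of the hybrids, counts were 92 longer in kidney and 137 and 143 in lung, and the other 5 were as before. The sites named as the largest calls per tissue and direction kept those calls in 192 of 192 alternatives. They were chosen for the size of their difference, so their calls could hardly be lost. No conclusion is drawn from this for smaller calls, whose counts moved as given above.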
